A study of Mus musculus with 19 samples.

Results

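Glutathione is a small peptide that cells make from glutamate, cysteine and glycine and use to remove peroxides and reactive compounds. Glutamate-cysteine ligase, a pair of a catalytic subunit (Gclc) and a modifier subunit (Gclm), joins glutamate to cysteine, glutathione synthetase (Gss) adds glycine, and glutathione reductase (Gsr) returns oxidised glutathione to its reduced form with NADPH. Glutathione peroxidases spend it on peroxides, catalase (Cat) breaks down hydrogen peroxide without it, and superoxide dismutase 1 (Sod1) turns superoxide into hydrogen peroxide. The lens is known for holding glutathione at a high concentration, and its loss is a known feature of cataract.

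The genes described here are 10 listed enzymes of this system: Gclc, Gclm, Gss, Gsr, Gpx1, Gpx3, Gpx4, Prdx6, Cat and Sod1. They were chosen by name, and 9 of the 10 had at least 1 probe set (short probes that are read together as 1 signal) that names only that gene, 19 probe sets in all, out of 18193 genes in the whole series with such a probe set. Prdx6 was not analysed here. A gene is represented by its main probe set, the one with the highest mean log2 signal over all arrays, and the other sets are given beside it. All 9 genes were among the 13320 tested, which had a main probe set above the median of all values (5.46, log2) in 3 or more arrays.

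The values came from 19 Affymetrix arrays, 1 per RNA sample, of wild-type mouse embryos of the ICR strain, dissected by hand. In the lens series there were 9 lens arrays, 3 each of embryonic day E10.5, E11.5 or E12.5, and 4 whole-body arrays that together span those stages. In the tooth series there were 3 arrays of E13.5 tooth germ and 3 whole-body arrays of stages E11.5 through E13.5. No treatment or mutant is listed, and the whole body of each series is the control that the study's design names. The labels do not say whether arrays of a group come from separate litters or pools, so the p-values measure only the spread between these arrays, and their number limits the precision.

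The tissue labels held in the markers. All 10 lens markers were higher in lens at E12.5 than in body, and their summed signal was 14.69 to 16.22 (E10.5), 15.67 to 16.13 (E11.5) and 16.46 to 16.53 (E12.5) in lens, against 10.29 to 10.42 in body (log2). Of 11 tooth germ markers tested, 9 were higher in tooth germ than in body (summed signal 12.83 to 12.87 in tooth germ, against 10.99 to 11.13 in body). Of the markers of other cells that the body holds, 8 of 9 for red cells, 9 of 9 for liver and 9 of 10 for mesenchyme were lower in lens at E12.5 than in body. Other lists were higher or mixed in lens at E12.5. Of 12 macrophage markers 5 were higher and 0 lower (C1qa, Tyrobp, Ctss, Cx3cr1 and Aif1), and the median of their summed signal was 11.24 in lens (lowest array 10.87), against 10.72 in body (10.49 to 10.85). Of 5 pigment cell markers tested 3 were higher (Mitf, Dct and Pmel) and 1 lower, at 9.13 to 9.18 in lens, against 8.87 to 9.06 in body. Of 7 neural retina markers 3 were higher (Six3, Six6 and Rax) and 3 lower, at 10.55 to 10.97 in lens, against 10.92 to 11.41 in body. In tooth germ 6 of 9 red cell, 8 of 9 liver and 6 of 12 macrophage markers were lower. In such bulk samples fewer cells of a type and less RNA per cell cannot be told apart.

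Some features of the arrays touch the results and are given first. The body arrays of the tooth series and of the lens series differed in 63.6% of all genes, and all 9 enzyme genes were among them, from -2.33 (Gsr) to 1.31 (Gss) in their main sets on the log2 scale. The Gpx1 call there was lost with quantile normalization (-0.16, adjusted p = 0.228) and the Cat call without tooth-series body replicate 3 (0.84, adjusted p = 0.0815). For 4 genes the main and another probe set did not move together in that comparison (Cat 1.15 and -1.56, Gclc 0.77 and -1.02, Gclm -1.96 and 0.71, Gss 1.31 and -0.14). For Gsr (-2.33 and -4.21) and Gpx4 (-1.13 and -3.27) both sets were lower, but by unlike amounts. Each organ is therefore set only against the body of its own series. In the lens series the signal of the bacterial control probe sets splits the arrays into 6 with high signal (11.40 to 12.66) and 7 with low signal (9.88 to 10.56), each with arrays of all 4 groups. In the tooth series all 3 tooth germ arrays (10.54 to 10.87) lay above all 3 body arrays (8.55 to 9.36), so control signal and group cannot be told apart there. This split was read from the data, not from the labels. Differences within either set rest on 1 or 2 arrays per group, and a lone array is then taken to vary like the others.

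3 promoter windows are shown first, since Gss and Gclm were the genes that were higher in lens than in body at more than 1 stage and Sod1 was lower at the later stages. Each is the RefSeq sequence (assembly GRCm38.p6) from 250 bases before to 50 bases after a transcript's start, 5′ to 3′ on the gene's strand. Capitals mark matches on either strand to TGACNNNGC, the core of the antioxidant response element, which transcription factors of the Nrf2 and small Maf families are known to bind.
Gss: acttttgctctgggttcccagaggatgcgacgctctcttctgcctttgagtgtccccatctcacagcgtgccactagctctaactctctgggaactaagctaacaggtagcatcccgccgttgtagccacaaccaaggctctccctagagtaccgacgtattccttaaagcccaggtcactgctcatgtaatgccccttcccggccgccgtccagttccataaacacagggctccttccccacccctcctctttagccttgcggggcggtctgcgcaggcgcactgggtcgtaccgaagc
Gclm: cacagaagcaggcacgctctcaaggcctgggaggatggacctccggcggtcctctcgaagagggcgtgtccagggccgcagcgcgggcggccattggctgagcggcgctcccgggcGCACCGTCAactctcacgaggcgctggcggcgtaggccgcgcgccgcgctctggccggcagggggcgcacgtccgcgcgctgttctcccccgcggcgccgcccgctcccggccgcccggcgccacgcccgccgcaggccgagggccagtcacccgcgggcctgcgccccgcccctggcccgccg
Sod1: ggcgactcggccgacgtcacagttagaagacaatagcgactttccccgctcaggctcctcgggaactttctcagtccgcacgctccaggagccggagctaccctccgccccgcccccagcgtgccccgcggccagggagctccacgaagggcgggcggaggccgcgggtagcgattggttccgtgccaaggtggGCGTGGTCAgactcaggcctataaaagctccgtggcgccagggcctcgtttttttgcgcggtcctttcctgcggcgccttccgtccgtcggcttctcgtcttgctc
The Gss window (chr2:155592761-155593060, minus strand) held no match to these letters. The Gclm window (chr3:122245307-122245606, plus strand) held 1 match, TGACGGTGC on the opposite strand, from position -134 relative to the start. The Sod1 window (chr16:90220512-90220811, plus strand) held 1 match, TGACCACGC on the opposite strand, from position -56. Of 32851 RefSeq promoters of 300 bases, 12.4% held a match. The GC box GGGCGG was found 1 time in the Gss window and 4 times in each of the Gclm and Sod1 windows, and 35.7% of promoters held it. The letters TATAAA stood 1 time in the Sod1 window and in neither of the other windows, against 13.6% of promoters. Windows were also found for Gpx1, Gpx3, Gpx4 and Cat, and none of them held the TGACNNNGC core. A match is a description of the sequence and says nothing about binding in these tissues.

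Glutathione synthetase was the enzyme with the widest lens difference of the 9. Gss (GRCm38.p6, as for all positions here, chromosome 2, 155563181 to 155592810, minus strand, overlapping the annotated gene Gssos2) is measured by 2 probe sets, and the name of the main one ends in _x_at, which Affymetrix gives to sets with probes that may match other transcripts. The main set had log2 signals of 6.98, 7.84 and 8.28 in lens at E10.5. Its signals were 7.84, 8.40 and 8.34 in the E11.5 lens and 9.48, 9.57 and 9.65 in the E12.5 lens, against 6.32, 6.27, 6.50 and 5.97 in the 4 body arrays. No lens array overlapped the body arrays, and the E12.5 arrays lay above all arrays of the earlier stages. Gss was higher than in body by 1.43 ± 0.24 at E10.5 (log2 difference ± SE, adjusted p = 9.4e-05), 1.92 ± 0.24 a day later (adjusted p = 2.7e-06) and 3.30 ± 0.24 at E12.5 (adjusted p = 1.2e-09), folds of 2.7, 3.8 and 9.88. These are limma's moderated tests, adjusted by Benjamini-Hochberg over all genes tested. From E10.5 to E11.5 the difference of 0.49 ± 0.26 did not pass (adjusted p = 0.352), while E12.5 was above E11.5 by 1.38 ± 0.26 (adjusted p = 0.00245) and above E10.5 by 1.87 ± 0.26 (adjusted p = 2.5e-05). By its difference from body at E12.5 Gss stood in place 92 of 13320 genes, counted from the highest. Within the arrays of high control signal the differences from body were 1.02, 1.45 and 3.10 at the 3 stages in turn, and within those of low signal 2.13, 2.22 and 3.47, and all passed. The step between the later stages did not pass within the high set (1.65, adjusted p = 0.0591).

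The other Gss probe set gave the same order in the lens series. It read 7.83, 7.85 and 9.29 at E10.5, 8.33, 9.18 and 8.81 at E11.5, then 10.44, 10.56 and 10.46 at E12.5, against 6.66, 6.56, 6.45 and 6.64 in body. Its differences from body were 1.75, 2.20 and 3.91, each with an SE of 0.27, and each passed (adjusted p = 4.3e-05, 2.8e-06 and 8.9e-10, over all probe sets that passed the same filter). E10.5 replicate 3 had the highest Gss signal of its stage in both sets, and it also had the highest summed lens marker signal of that stage (16.22). It was also the only E10.5 array of low control signal, so these features cannot be told apart there. The part of lens, macrophage, pigment or retina cell content in the differences of Gss and of Gclm was not tested.

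**Figure D1:**
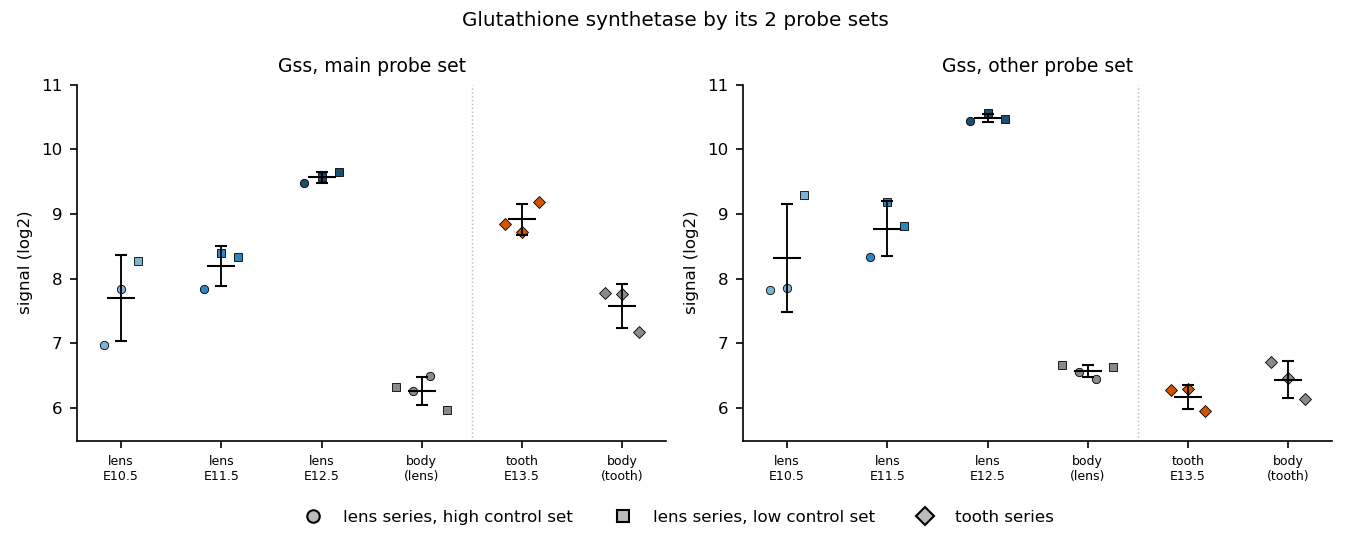
Log2 signal of the main and the other Gss probe set on each array, by group (points; circles and squares are lens-series arrays of high and low control signal, diamonds the tooth series), with the mean and SD of the group as bars. Both sets lie highest in lens at E12.5, where arrays read 9.48 to 9.65 and 10.44 to 10.56. In the tooth series tooth germ lies above body in the main set only.

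In tooth germ the 2 Gss probe sets disagreed. The main set read 8.85, 8.72 and 9.18 in tooth germ, against 7.78, 7.76 and 7.18 in the body arrays, a difference of 1.34 ± 0.26 (adjusted p = 3.5e-04). The groups did not overlap. The other set read 6.28, 6.29 and 5.96 in tooth germ, against 6.71, 6.46 and 6.14 in body, and its difference of -0.26 ± 0.29 did not pass (adjusted p = 0.506). The tooth difference of Gss therefore holds for 1 of its 2 probe sets, and their mean did not pass (0.54, adjusted p = 0.0882). The lens difference at E12.5 was larger than the tooth difference in the main set (1.96 ± 0.35, adjusted p = 2.0e-04) and in the other set (4.17 ± 0.40, adjusted p = 1.8e-07).

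Of the ligase that makes the first bond, the modifier subunit was higher in lens and lower in tooth germ. Gclm (chromosome 3, 122245487 to 122267215, plus strand, overlapping the annotated genes Gm46822 and Gm6061) read 9.88, 9.66 and 9.73 at E10.5, 10.28, 10.28 and 9.89 at E11.5, then 10.10, 10.14 and 9.84 at E12.5, against 9.26, 9.25, 9.83 and 9.53 in body. The E11.5 and E12.5 arrays all lay above the body arrays, some by a narrow margin, and the E10.5 arrays overlapped them. Gclm was higher by 0.68 ± 0.20 at E11.5 (adjusted p = 0.0114) and 0.56 ± 0.20 at E12.5 (adjusted p = 0.0303), and by 0.29 ± 0.20 at E10.5 without passing (adjusted p = 0.31). The E12.5 call was lost when E12.5 replicate 1 or 2 or body replicate 1 or 2 was left out, with differences from 0.48 to 0.68 over all arrays left out in turn. Within the arrays of low control signal Gclm was higher at E11.5 (0.69) and E12.5 (0.59), and within those of high signal the values of 0.74 and 0.55 did not pass. The dimmer Gclm set read 6.63, 6.84 and 7.20 at E10.5, 6.84, 8.08 and 7.74 at E11.5, then 8.03, 8.30 and 8.05 at E12.5, against 6.99, 6.74, 6.45 and 7.26 in body. It differed from body by 0.03 at E10.5, 0.69 at E11.5 (adjusted p = 0.0443) and 1.27 at E12.5 (adjusted p = 5.5e-04). In that set E12.5 was above E10.5 by 1.24 ± 0.28 (adjusted p = 0.00306), whereas the main set differed by 0.27 ± 0.21 (adjusted p = 0.426).

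In tooth germ Gclm read 6.56, 6.62 and 7.34, against 7.73, 7.68 and 7.12 in body. 1 tooth germ array lay above 1 body array. The difference of -0.67 ± 0.21 passed (adjusted p = 0.0168) but not after leaving out tooth germ replicate 1 or 2 or body replicate 1 or 2, with values from -0.92 to -0.53. The dimmer set gave -1.21 ± 0.28 with no overlap of the groups (6.26, 5.99 and 6.82 in tooth germ, against 7.68, 7.35 and 7.69 in body; adjusted p = 0.00179). The lens difference at E12.5 exceeded the tooth difference by 1.22 ± 0.29 in the main set (adjusted p = 0.0025) and by 2.48 ± 0.38 in the other (adjusted p = 4.2e-05).

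No difference from body passed for the main set of the catalytic subunit. Gclc (chromosome 9, 77754535 to 77794489) averaged 7.69 ± 0.32 (E10.5), 7.83 ± 0.49 (E11.5) and 7.84 ± 0.23 (E12.5) in lens, against 7.87 ± 0.30 in body (mean ± SD, n = 3 lens arrays per stage and 4 body arrays). The group order cannot be read from these means, since neighbours differ by less than their SD. The differences were -0.17, -0.03 and -0.02, each with an SE of 0.21. In tooth germ Gclc averaged 8.31 ± 0.24, against 8.64 ± 0.11 in body, and the difference of -0.33 ± 0.23 did not pass (adjusted p = 0.257). The other Gclc set was lower at E12.5, just past the threshold (-0.49 ± 0.19, adjusted p = 0.0468), and gave 0.44 ± 0.20 in tooth germ (adjusted p = 0.0985). In that set the lens difference at E12.5 was below the tooth difference (-0.93 ± 0.28, adjusted p = 0.0132). The main set gave 0.31 ± 0.31 for this gap and did not pass (adjusted p = 0.47).

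Glutathione reductase, which recycles oxidised glutathione, did not pass the test against body at any stage. Gsr (chromosome 8, 33653238 to 33698162, overlapping the annotated genes Gm24727 and Gm17803) averaged 7.91 ± 0.26, 8.12 ± 0.39 and 8.18 ± 0.25 in lens at the 3 stages in turn, against 8.13 ± 0.22 in body. Its differences were -0.22, -0.01 and 0.05, each with an SE of 0.26. The other set, with an SE of 0.13, gave -0.12, -0.05 and 0.01. In the tooth series Gsr read 6.40, 5.09 and 6.14 in tooth germ, against 6.20, 5.75 and 5.45 in body. These values run from below to above the median of all values (5.46). The difference of 0.08 ± 0.28 did not pass (adjusted p = 0.846). The other set averaged 4.24 ± 0.20 in tooth germ, against 4.50 ± 0.16 in body, below the 95th percentile of 27 control sets with no target in the samples (4.71).

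**Figure D2:**
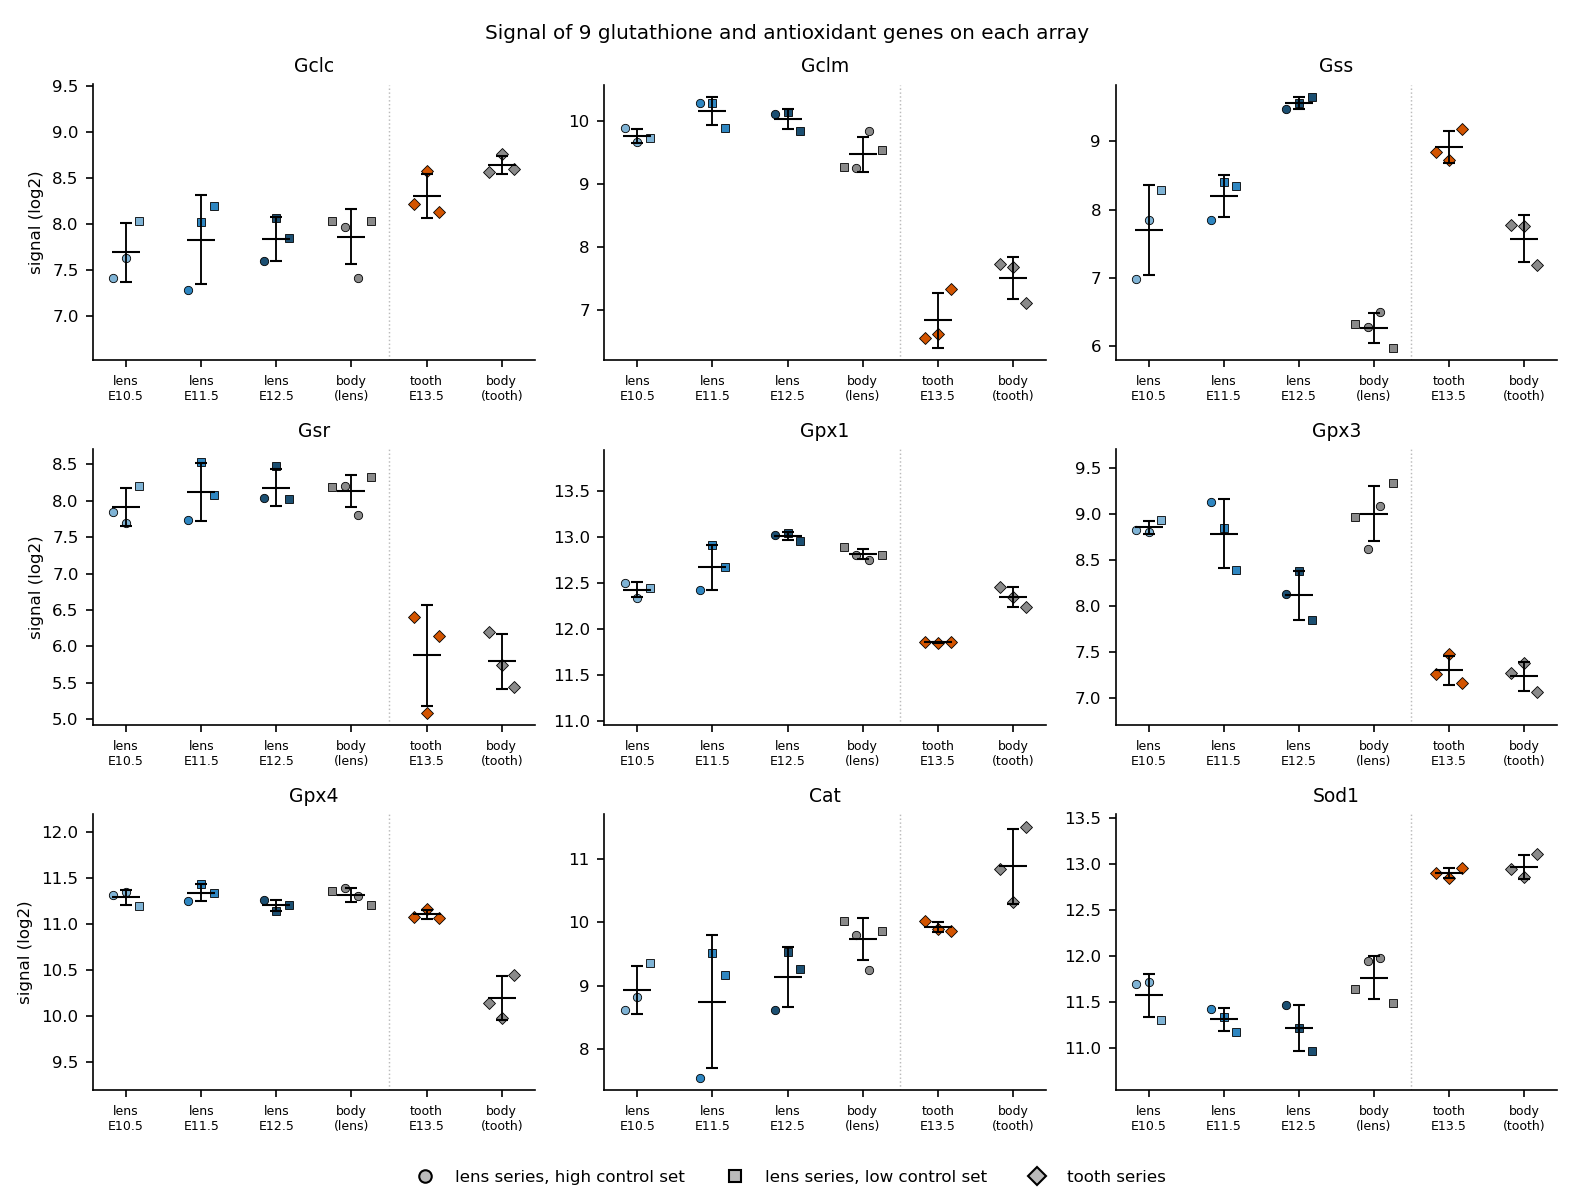
Log2 signal of the main probe set of each of the 9 genes on each array, by group, with the mean and SD of the group as bars; the dotted line parts the lens series from the tooth series, and the y axes differ between panels. Gss climbs from E10.5 to E12.5, Gpx3 is lowest of the lens series at E12.5, and Cat spreads most at E11.5.

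The peroxidases did not move as a group. Gpx1, the abundant cytosolic glutathione peroxidase (chromosome 9, 108339080 to 108340342), read 12.50, 12.34 and 12.45 at E10.5, 12.42, 12.91 and 12.68 at E11.5, then 13.02, 13.05 and 12.96 at E12.5, against 12.89, 12.81, 12.75 and 12.81 in body. The E10.5 arrays all lay below body and the E12.5 arrays all lay above it. Gpx1 was lower than body at E10.5 (-0.38 ± 0.12, adjusted p = 0.0172), a call lost without E10.5 replicate 2 (-0.34), and the difference at E12.5 did not pass (0.20 ± 0.12, adjusted p = 0.188). Within the arrays of high or of low control signal the E10.5 difference was -0.36 or -0.40 and passed in neither. Between stages Gpx1 was higher at E12.5 than at E10.5 by 0.58 ± 0.13 (adjusted p = 0.00217), and by 0.60 or 0.55 within a control set, where neither passed. In tooth germ it read 11.86, 11.85 and 11.86, against 12.46, 12.35 and 12.24 in body, and it was lower there (-0.49 ± 0.13, adjusted p = 0.00404). Red blood cells are rich in this enzyme, and the summed signal of 10 red cell markers was 14.30 to 15.09, 15.26 to 15.39 and 14.72 to 15.08 in lens at the 3 stages in turn, against 15.60 to 15.78 in body. It was 13.85 to 14.08 in tooth germ, against 14.46 to 15.00 in body. The part of red cell content in these differences was not tested.

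Gpx3, the secreted plasma glutathione peroxidase (chromosome 11, 54902854 to 54910387), fell in the lens at E12.5. It read 8.83, 8.81 and 8.94 at E10.5, 9.13, 8.85 and 8.39 at E11.5, then 8.13, 8.38 and 7.85 at E12.5, against 8.97, 8.62, 9.09 and 9.34 in body. Every E12.5 array lay below every other array of the lens series, the nearest by a very narrow margin (8.38 at E12.5 and 8.39 at E11.5). Gpx3 was lower than body at E12.5 (-0.89 ± 0.18, adjusted p = 5.6e-04), lower at E12.5 than at E10.5 (-0.74 ± 0.20, adjusted p = 0.00959) and lower at E12.5 than at E11.5 (-0.67 ± 0.20, adjusted p = 0.0467). The first call held with every array left out in turn. Within the arrays of high control signal it gave -0.72 (adjusted p = 0.0582), and within those of low signal -1.05 (adjusted p = 0.00563). The step from E10.5 was lost without E12.5 replicate 3 (-0.60), and the step from E11.5 without E11.5 replicate 1 or 2 or E12.5 replicate 1 or 3 (-0.87 to -0.50 over all arrays left out in turn). Within a control set neither step passed. In tooth germ Gpx3 averaged 7.30 ± 0.16, against 7.24 ± 0.16 in body, and the difference of 0.06 ± 0.20 did not pass (adjusted p = 0.826). The lens difference at E12.5 was below the tooth difference (-0.95 ± 0.27, adjusted p = 0.00838).

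Gpx4, the peroxidase that reduces lipid hydroperoxides in membranes (chromosome 10, 80047166 to 80056439), was near the body level in lens and higher in tooth germ. It averaged 11.29 ± 0.08, 11.34 ± 0.09 and 11.20 ± 0.06 in lens at the 3 stages in turn, against 11.31 ± 0.08 in body, with differences of -0.02, 0.02 and -0.11 and an SE of 0.12 each. In tooth germ it read 11.08, 11.16 and 11.07, against 10.14, 9.98 and 10.45 in body. The groups did not overlap, and Gpx4 was higher by 0.92 ± 0.13 (adjusted p = 1.2e-05). The other Gpx4 set was higher by 0.55 ± 0.15 in tooth germ (adjusted p = 0.00522). The lens difference at E12.5 was below the tooth difference in the main set (-1.03 ± 0.17, adjusted p = 1.0e-04), and in the other set this did not pass (-0.48 ± 0.20, adjusted p = 0.0659).

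Catalase had the largest SD within a group among the 9 main sets (1.05 in lens at E11.5). Cat (chromosome 2, 103453904 to 103485153) read 8.62, 8.82 and 9.36 at E10.5, 7.54, 9.51 and 9.17 at E11.5, then 8.61, 9.53 and 9.26 at E12.5, against 10.03, 9.80, 9.25 and 9.87 in body. Lens and body overlapped at each stage. The difference was -0.80 ± 0.37 at E10.5 (adjusted p = 0.105), -1.0 ± 0.37 at E11.5 (adjusted p = 0.0387) and -0.61 ± 0.37 at E12.5 (adjusted p = 0.195). The E11.5 call was lost without E11.5 replicate 1 (-0.40) and without body replicate 1, 2 or 4. It was also lost with the arrays of the contrast alone (adjusted p = 0.111). The other Cat set gave -0.54, -0.38 and -0.09, none of which passed, and the mean of both sets did not pass at E11.5 (-0.69, adjusted p = 0.0822). In tooth germ Cat read 10.02, 9.90 and 9.86, against 10.84, 10.32 and 11.51 in body, without overlap. The difference of -0.96 ± 0.39 did not pass (adjusted p = 0.0556), though it did with the 6 tooth-series arrays alone (adjusted p = 0.0116). The other Cat set did not pass there either (-0.63 ± 0.29, adjusted p = 0.0966).

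Cat also differed with the control signal of the arrays. Within the lens series the 6 arrays of high bacterial control signal read lower than the 7 of low signal, with the group as a term (-0.86 ± 0.18, adjusted p = 0.00568). The same comparison gave -0.49 ± 0.11 for Gclc (adjusted p = 0.00919), -0.35 ± 0.12 for Gsr (adjusted p = 0.0443) and 0.34 ± 0.08 for Sod1 (adjusted p = 0.011). These 4 of 9 genes stand against 24.2% of all genes called in it, and the comparison was chosen after the data were seen. With the control set as a block Cat was lower in lens than in body at E10.5 (-0.66 ± 0.25, adjusted p = 0.049), E11.5 (-1.14 ± 0.25, adjusted p = 0.00113) and E12.5 (-0.75 ± 0.25, adjusted p = 0.0195). The block was read from these same data, and Cat varies with it. Lower p-values can follow from that choice alone, and they lend the Cat calls no support. Within the high set Cat differed by -0.80, -1.98 and -0.92 at the 3 stages in turn, and within the low set by -0.59, -0.61 and -0.56. The values of -1.98, -0.92 and -0.59 rest on 1 lens array each. That of -1.98 rests on E11.5 replicate 1 (7.54), without which the E11.5 difference over all arrays was -0.40. The block left the other calls of the 9 genes against body as they were. Liver and red cells are rich in catalase, and both marker lists stood lower in lens, the liver list at 8.01 to 8.20 in lens at E12.5 against 13.96 to 14.25 in body. The part of these cells in the Cat difference was not tested.

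**Figure D3:**
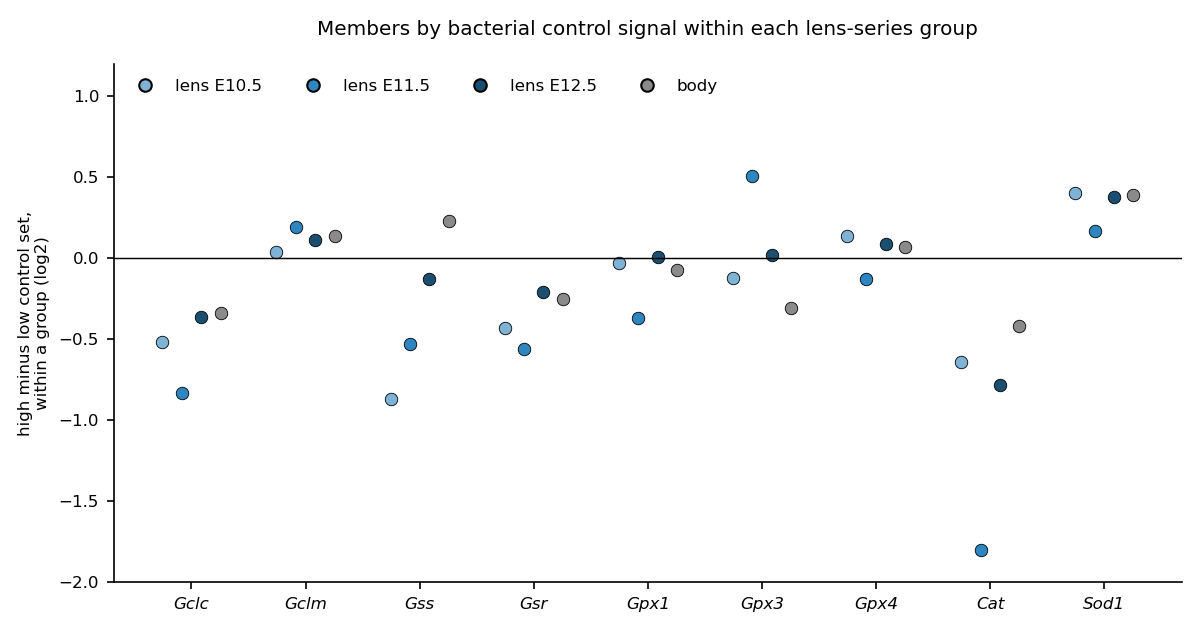
Mean log2 signal of the arrays with high minus those with low bacterial control signal, within each group of the lens series, for the main probe set of the 9 genes (1 point per gene and group). All 4 groups lie below 0 for Gclc, Gsr and Cat and above 0 for Gclm and Sod1; the lowest point is Cat at E11.5.

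Sod1, the cytosolic copper and zinc enzyme (chromosome 16, 90220762 to 90226333), was lower in lens than in body at the later stages in its main set. It read 11.69, 11.71 and 11.30 at E10.5, 11.42, 11.33 and 11.17 at E11.5, then 11.46, 11.21 and 10.96 at E12.5, against 11.64, 11.94, 11.97 and 11.49 in body. The E11.5 and E12.5 arrays all lay below the body arrays, the nearest by a narrow margin. The difference was -0.20 ± 0.15 at E10.5 (adjusted p = 0.375), -0.45 ± 0.15 at E11.5 (adjusted p = 0.0263) and -0.55 ± 0.15 at E12.5 (adjusted p = 0.00649). The E11.5 call was lost without E11.5 replicate 2 or 3 or body replicate 2 or 3 (-0.54 to -0.38), and the E12.5 call without E12.5 replicate 3 (-0.42). Within the arrays of high or low control signal E12.5 gave -0.49 (adjusted p = 0.108) or -0.48 (adjusted p = 0.025), and E11.5 passed in neither (-0.53 and -0.31). The second Sod1 set was also lower at E12.5 (-0.49 ± 0.17, adjusted p = 0.03) but not at E11.5 (-0.16 ± 0.17, adjusted p = 0.509), and 2 dimmer sets gave 0.25 and 0.18 at E12.5, neither past the threshold. The dimmest of these averaged 5.24 ± 0.25 in lens at E10.5, against 4.46 ± 0.05 in body, where all 4 arrays lay below the control level of 4.71, so that its call (adjusted p = 1.7e-04) gives only a bound of at least 1.44-fold higher, taken against that level; 1 more Sod1 set did not pass the filter. The mean of all Sod1 sets did not pass at E12.5 (-0.12, adjusted p = 0.278) or at E11.5 (adjusted p = 0.971). That mean weighs all sets alike. It includes the set that failed the filter (2.81 in lens at E12.5, 2.77 in body) and the dimmest one that passed (4.63 and 4.46). These averages lie below the control level of 4.71, so the mean cannot decide whether the difference of the 2 brighter sets holds. In tooth germ the main set averaged 12.89 ± 0.06, against 12.97 ± 0.13 in body (difference -0.08 ± 0.16, adjusted p = 0.737), while the second set was lower (-0.62 ± 0.18, adjusted p = 0.0119).

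Counted over the 9 genes, 2 were called against body at E10.5 (Gss higher, Gpx1 lower), where 32.6% of all genes were called. At E11.5 4 were called (Gss and Gclm higher, Cat and Sod1 lower), with 36.9% of all genes, and at E12.5 4 (Gss and Gclm higher, Gpx3 and Sod1 lower), with 43.3%. In tooth germ 4 were called (Gss and Gpx4 higher, Gclm and Gpx1 lower), with 41.9%. These shares are near those of all genes, and the median difference over the 9 was -0.02 at E12.5 and -0.08 in tooth germ, beside -0.05 and -0.04 over all genes. Between stages none was called from E10.5 to E11.5 by limma (4.26% of all genes), and none of the 9 had an unadjusted p under 0.05. Gss and Gpx3 were called between E11.5 and E12.5 (2 of 9, 6.46% of all genes) and Gss, Gpx1 and Gpx3 between E10.5 and E12.5 (3 of 9, 22.1%). The lens difference at E12.5 and the tooth difference differed for 5 of 9 (Gclm, Gss, Gpx1, Gpx3 and Gpx4), with 39.6% of all genes. All 3 lens stages were set against the same 4 body arrays, so their differences from body are not independent.

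**Figure D4:**
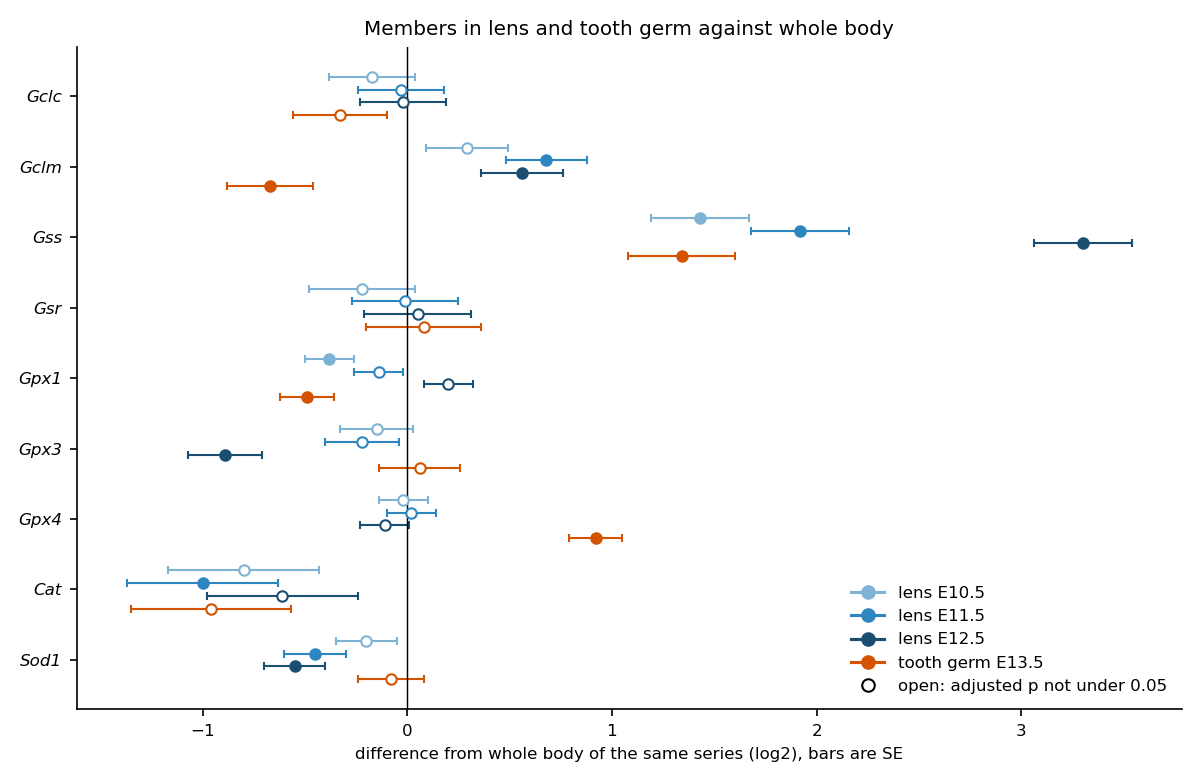
Log2 difference from the body of the same series for the 9 genes in lens at each stage and in tooth germ (points, bars are the SE of the fit; filled points have an adjusted p under 0.05). Gss stands apart to the right, at 1.43, 1.92 and 3.30 in lens, Gclm is called above 0 in lens at E11.5 and E12.5 and below 0 in tooth germ, and Gpx4 is called in tooth germ and at no lens stage.

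The genes around glutathione were taken from 7 lists. Over all 13320 genes 43.3% were called in lens at E12.5 (2215 higher and 3559 lower) and 41.9% in tooth germ (2214 higher and 3370 lower). Of 8 other peroxidases and dismutases tested, 0 were higher and 5 were lower in lens at E12.5 than in body (median -0.35), and 0 were higher and 2 lower in tooth germ (median -0.10). The shares called were 62.5% in lens and 25% in tooth germ, against 43.3% and 41.9% of all genes. Gpx7, a peroxidase of the endoplasmic reticulum, was lower in lens (-2.61 ± 0.18, adjusted p = 5.1e-10; 6.38 ± 0.20 in lens at E12.5, against 9.0 ± 0.16 in body). Its relative Gpx8 (-0.60) and the peroxiredoxins Prdx4 (-0.42), Prdx3 (-0.37) and Prdx2 (-0.33), which reduce peroxides with thioredoxin, were lower too. Prdx2 (-0.97) and Prdx3 (-0.68) were the 2 that were lower in tooth germ, and Prdx2 is abundant in red cells, whose markers were also lower there. Their part in the Prdx2 difference was not tested.

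Of 11 thioredoxin and glutaredoxin genes tested, 2 were higher and 4 lower in lens at E12.5 (median -0.15), and 1 was higher and 2 lower in tooth germ (median -0.19), or 54.5% and 27.3% called, against 43.3% and 41.9% of all genes. Txnip, which binds and inhibits thioredoxin, was lower in lens (-1.64 ± 0.18, adjusted p = 2.9e-07). The cytosolic glutaredoxin Glrx, which removes glutathione from proteins, was lower (-1.59 ± 0.18, adjusted p = 4.7e-07), and the mitochondrial Glrx2 was higher (1.10 ± 0.14, adjusted p = 1.8e-06). Both glutaredoxins also moved between E10.5 and E12.5, Glrx by -1.08 (adjusted p = 3.3e-04) and Glrx2 by 0.71 (adjusted p = 0.00123). Thioredoxin reductase Txnrd1 was lower in lens (-0.63) and in tooth germ (-1.24), and Txnrd3 was higher in tooth germ (0.71).

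Of 16 glutathione transferases tested, which attach glutathione to other molecules, 6 were higher and 7 lower in lens at E12.5 (median -0.25), and 3 were higher and 3 lower in tooth germ (median 0.03). In lens 81.2% of the list was called, against 43.3% of all genes, and in tooth germ 37.5%, against 41.9%. The microsomal Mgst3 (-2.34 ± 0.20, adjusted p = 1.7e-08) and Mgst1 (-2.18 ± 0.30, adjusted p = 7.1e-06) and the alpha-class Gsta4 (-1.80 ± 0.18, adjusted p = 1.4e-07) were lower. Liver, red cell and mesenchyme markers moved the same way, and their part in these differences was not tested. The mu-class Gstm6 averaged 6.39 ± 0.39 in lens at E12.5, against 4.58 ± 0.16 in body, where 3 of 4 arrays lay below the control level of 4.71. It was at least 3.15-fold higher, taken against that level (adjusted p = 4.1e-05 in the fit). In tooth germ Mgst2 (-1.07) and Gsto1 (-0.95) were lower.

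Of 15 genes of precursor supply and glutathione breakdown tested, 3 were higher and 3 lower in lens at E12.5 (median 0.03), and 2 were higher and 2 lower in tooth germ (median 0.08). Calls thus covered 40% in lens and 26.7% in tooth germ, against 43.3% and 41.9% of all genes. Slc3a2, the heavy chain that amino acid exchangers of the plasma membrane need, was higher in lens at every stage (1.87, 2.23 and 2.55). Its level was 12.40 ± 0.03 in lens at E12.5, against 9.86 ± 0.22 in body (difference 2.55 ± 0.17, adjusted p = 3.6e-10), and it was higher at E12.5 than at E10.5 by 0.68 (adjusted p = 0.0103). In tooth germ it averaged 8.78 ± 0.40, against 8.70 ± 0.24 in body (0.08 ± 0.18, adjusted p = 0.765). Chac2, which cleaves glutathione, was lower in lens (-1.73 ± 0.35, adjusted p = 4.7e-04) and in tooth germ (-1.21 ± 0.38, adjusted p = 0.0148). The glutamate transporter Slc1a3 (-1.27) and the cysteine-making enzyme Cth (-1.09) were lower in lens. In tooth germ the serine and glycine enzyme Shmt2 was higher (1.34) and the peptidase Lap3 was lower (-1.23).

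Of 13 genes of NADPH supply tested, 4 were higher and 3 lower in lens at E12.5 (median 0.06), and 3 were higher and 2 lower in tooth germ (median -0.03), which is 53.8% called in lens and 38.5% in tooth germ, against 43.3% and 41.9% of all genes. The folate enzymes Mthfd1 (-0.98 ± 0.14, adjusted p = 1.1e-05) and Mthfd2 (-0.58) and the NAD kinase Nadk (-0.58) were lower in lens, and H6pd, which makes NADPH in the endoplasmic reticulum, was higher (0.61). Pgls, of the pentose phosphate pathway, was higher in tooth germ by 1.08 (difference 1.08 ± 0.14, adjusted p = 6.4e-06), and the malic enzyme Me2 was lower (-1.01). Markers of cell division were lower as well in lens at E12.5, all 11 tested, with a summed signal of 12.82 to 13.25 in lens against 14.35 to 14.44 in body, and their part in the folate enzymes' difference was not tested.

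Of 14 genes of the Nrf2 pathway tested, 5 were higher and 2 lower in lens at E12.5 (median -0.04), and 2 were higher and 3 lower in tooth germ (median 0.13). These are 50% and 35.7% of the list, against 43.3% and 41.9% of all genes. Mafg, a small Maf protein that pairs with Nrf2 at the antioxidant response element and is known for roles in the lens, was higher at E10.5 (2.0), E11.5 (2.23) and E12.5 (2.74 ± 0.16, adjusted p = 4.5e-11). It read 10.20 ± 0.16 in lens at E12.5, against 7.46 ± 0.18 in body, and was lower in tooth germ (-0.55 ± 0.17, adjusted p = 0.014). Bach1, the repressor that competes for the same element, was lower in lens (-1.54 ± 0.16, adjusted p = 1.3e-07) and in tooth germ (-1.0 ± 0.17, adjusted p = 9.5e-05). Abcc1, a pump that exports glutathione conjugates, was higher in lens (0.90) and in tooth germ (1.08), and Nfe2l1, a relative of Nrf2, was higher in lens (0.85). The remaining calls in lens were Nfe2l2 and Maff, higher, and Nqo1, lower. Nqo1 averaged 4.52 in lens at E12.5, below the control level of 4.71, against 5.10 in body. In tooth germ Nqo1 was higher and Fth1 lower.

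Of 16 genes of selenoproteins and their synthesis and repair partners tested, 3 were higher and 5 lower in lens at E12.5 (median 0.24), and 4 were higher and 6 lower in tooth germ (median 0.01). These are 50% and 62.5% of the list, against 43.3% and 41.9% of all genes. Gpx1, Gpx3 and Gpx4 are themselves selenoproteins and are not counted in this list. Selenom was lower in lens (-1.84 ± 0.25, adjusted p = 5.0e-06), as was Selenoh (-0.87), while the methionine sulfoxide reductase Msra (1.08) and Secisbp2, which reads the selenocysteine signal in messenger RNA (0.92), were higher. In tooth germ the plasma selenium carrier Selenop was lower (-2.47 ± 0.17, adjusted p = 1.5e-09), beside liver markers at 8.42 to 9.83 in tooth germ against 13.48 to 13.89 in body. The part of liver in that difference was not tested. Selenow was higher in tooth germ (1.51 ± 0.14, adjusted p = 8.8e-08).

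**Figure D5:**
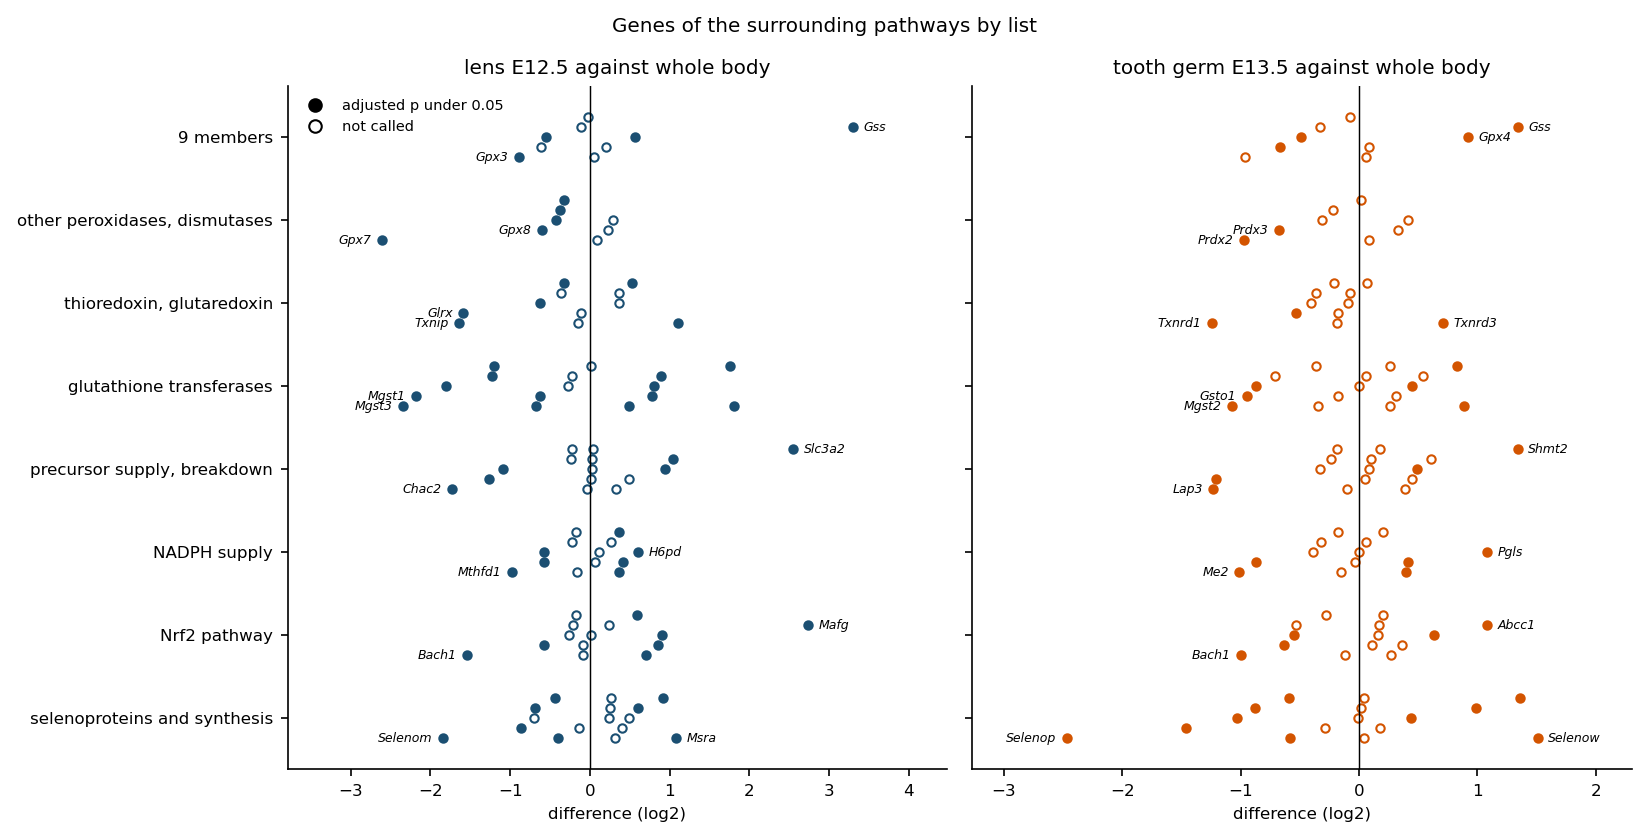
Log2 difference from body for each tested gene of the 9 enzymes and the 7 lists, in lens at E12.5 (left) and tooth germ at E13.5 (right); filled points have an adjusted p under 0.05, and up to 2 called genes per list carry names. Gss, Mafg and Slc3a2 lie farthest right in lens, and Gpx7, Mgst3 and Mgst1 farthest left.

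The genes whose signal followed Gss most closely over the 19 arrays, by Pearson's r, were Hfe (0.950), C77080 (0.924), Snx24 (0.922), Epb41l4a (0.909) and Pdrg1 (0.908). For Gclm and Gsr the closest were Phpt1 (0.992) and Ssr4 (0.980), and there the gap between the lens and tooth series, which all these arrays share, makes up most of the range. Within the 13 arrays of the lens series Gclc and Gsr had an r of 0.80 and Gclc and Cat an r of 0.78, and these 3 genes were all lower on the arrays of high control signal. Over the same arrays Gss had an r of -0.77 with Gpx3 and -0.76 with Sod1. These are descriptions over arrays that share groups and control signal, and no test was made of them.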

How the data were processed

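The intensity values deposited by the authors hold 1 value per probe set and array on a linear scale. They were made with RMA (background correction, a common distribution across arrays, summary per probe set), per the submitters' processing notes. A package affy, version 0.7, is listed there without a role. The deposited values do not share a single distribution, since array medians ran from 42.5 to 46.5 (linear). Quantile normalization moved the Gpx1 difference between the bodies from -0.46 to -0.16 (log2). Whether both series were normalized together was not tested, which limits comparisons across the series. Log2 was taken before any test, with no further normalization. The platform annotation of 2016 gives 34945 of the 45101 probe sets a single gene, and 34741 matched RefSeq (GRCm38.p6), whose names are used.

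limma 3.58.1 (R 4.3.3) fitted 1 mean per group over all 19 arrays, with moderated two-sided tests and Benjamini-Hochberg adjustment over 13320 genes; a call is an adjusted p under 0.05. Differences are log2 with the model's SE, and levels carry the SD between arrays. The tests were tried on simulated data. Identical values made up at most 2.042% of any 2 arrays, within-group correlations were 0.964 to 0.995, and 0 columns were left unused.

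The members and lists were chosen with earlier results of these data known. Named genes are all members, and per list up to 4 called genes with the largest absolute lens difference at E12.5 and up to 2 with the largest tooth difference. For the Nrf2 list all genes called in these comparisons are named. Likeness was taken for the 3 members with the widest range of group means. Alternatives covered the filter, an offset of 32, centring, quantile normalization, a variance trend, the mean of all probe sets, arrays of the contrast alone, the control sets, the replicate number and each array left out. Over 21 same-numbered pairs the correlation of deviations was -0.527 to 0.641 (median -0.05), with 8 over 0.1. Only lens E12.5 and E11.5 had all 3 pairs over 0.1 (0.405 to 0.641), and a replicate block was added for that contrast. This choice came from the data and not from the labels, and elsewhere the numbers were not taken as pairs. At both stages replicate 1 was of high control signal and replicates 2 and 3 of low signal. Same-numbered arrays thus shared the control set, and pairing and control signal cannot be told apart. Between arrays of unlike number and low signal at these stages the correlation was 0.354 and 0.077.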

Additional observations from a re-analysis of the deposited data

Results flagged for a closer look

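Gclc in the body arrays of the lens series had 1 array, replicate 3, that lay apart from the other 3 (7.42, against 8.03, 7.97 and 8.04). It is an array of high bacterial control signal, as is replicate 2, which read 7.97 and so lay with the arrays of low signal. The other Gclc set read highest on replicate 3 (8.81, against 8.01, 8.37 and 8.02 on the other arrays). The gap passed Dixon's 95% critical value, which chance alone passes in about 1 in 20 groups. The rule was applied to all 9 genes in this group of 4 arrays, so chance had 9 occasions. Groups of 3 arrays were not looked at in this way.

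For 5 of the 9 genes the lens difference from body at E12.5 and the tooth difference from body at E13.5 were not equal by limma's test of the difference itself. The gap was 1.22 for Gclm (0.56 in lens, -0.67 in tooth germ), 1.96 for Gss (3.30 and 1.34), 0.69 for Gpx1 (0.20 and -0.49), -0.95 for Gpx3 (-0.89 and 0.06) and -1.03 for Gpx4 (-0.11 and 0.92), all on the log2 scale, and 39.6% of all genes were called in the same comparison. Stage, organ, array series and control signal differ together between these groups and cannot be told apart.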

How the results depend on the processing

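The Gss calls in lens held under every alternative run except at E12.5 against E11.5 among arrays of high control signal (1.65, adjusted p = 0.0591), and the tooth call was lost with the mean of all probe sets (0.54, adjusted p = 0.0882). With each array left out in turn the Gss difference from body was 1.14 to 1.79 at E10.5, 1.82 to 2.10 at E11.5, 3.21 to 3.38 at E12.5 and 1.15 to 1.45 in tooth germ. With the replicate number as a block Cat at E11.5 (-0.96, adjusted p = 0.0681) and Gclm at E12.5 (0.58, adjusted p = 0.0579) lost their calls against body. The numbers were not taken to pair lens with body arrays. For E12.5 against E11.5 a replicate block within those 6 arrays was added after the data were seen. Gss (1.38, adjusted p = 0.00155) and Gpx3 (-0.67, adjusted p = 0.0149) kept their calls by limma there, with 1158 genes called over all. The block was chosen because these same arrays correlate by number. Lower p-values can follow from that choice alone, and they lend these calls no support. Same-numbered arrays of these stages also share the control set.

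Genes called over all tested were 568 for E11.5 against E10.5, and 56 with arrays of the contrast alone, 1473 among arrays of high and 122 of low control signal, and 207 to 750 with an array left out. For E12.5 against E10.5 the 2946 became 1568 and 1838 among arrays of high and low control signal. For E12.5 against E11.5 the 861 became 139 with arrays of the contrast alone, 443 among high arrays, and 442 to 941 with an array left out. Members called against body were 1 at E10.5 among low arrays, 2 at E11.5 with arrays of the contrast alone, among high arrays or with the mean of all probe sets, and 2 at E12.5 among high arrays. Leaving out an array gave 1 to 2 at E10.5 and 2 to 3 at E11.5. Between stages they were 1 among high arrays for E11.5 against E10.5, 1 in either set for E12.5 against E10.5, and for E12.5 against E11.5 1 with no filter, with centring, with arrays of the contrast alone or among low arrays, 0 among high arrays, and 1 to 2 with an array left out.

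Directions turned as follows. With the mean of all probe sets Cat (-0.20) and Gclc (-0.12) turned between the bodies, Gclc turned in tooth germ (0.05) and in its lens and tooth gap (-0.31), Gclm turned at E12.5 against E11.5 (0.23), and Sod1 turned at E10.5 against body (0.05). The Sod1 mean includes sets that lie below the control level of 4.71 in the lens-series body. Among high arrays Gclc (-0.24), Gpx3 (0.31) and Gpx4 (-0.09) turned at E11.5 against E10.5, Gpx3 (0.27) and Gpx4 (-0.10) at E11.5 against body, and Gpx4 at E12.5 against E11.5 (0.01). Without E11.5 replicate 1 Cat turned at E11.5 against E10.5 (0.40; -0.58 to 0.40 with each array left out) and at E12.5 against E11.5 (-0.21; -0.21 to 0.78). The bodies of Cat and Gclc were called before turning; the other turned differences were not. A further 70 of 1485 values for single genes changed sign while called in neither setting and under the gene's pooled SD, and were not counted as turned. The cause of these changes was not tested.

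Signal limits Gsr in the tooth series, which lies near the median of all values, and its other set there and the dimmest Sod1 set in the lens-series body, which lie below the control level of 4.71. Gpx3 at E12.5 against E11.5 lost its call with no filter (adjusted p = 0.057), with centring (adjusted p = 0.0506) or with arrays of the contrast alone (adjusted p = 0.269). A single array decides several calls of Cat, Gclm, Gpx3 and Sod1 and the E10.5 call of Gpx1 against body, as given with each. Few arrays hold a group within 1 control set, so those values rest on 1 or 2 arrays per group.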

Other observations

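Genes beside Gss on chromosome 2 were looked at after its value was seen, and their differences from body in lens at E12.5 ran from -0.75 to 0.80, against 3.30 ± 0.24 for Gss. Myh7b (0.62 ± 0.22, adjusted p = 0.029), the next measured gene on one side, and Edem2 (0.80, adjusted p = 0.00051) were higher. Trp53inp2 (-0.57, adjusted p = 0.022) and Procr (-0.75, adjusted p = 0.042) were lower. Acss2, the next gene on the other side, gave -0.29 ± 0.17 (adjusted p = 0.2), and Ggt7, a relative of the enzymes that break glutathione down, gave -0.24 (adjusted p = 0.24).

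Over the 13 arrays of the lens series alone, a choice made after the data were seen, the genes closest to Gss by Pearson's r were Gpr137b-ps (0.986), Nap1l4 (0.979), Gm17586 (0.979), Babam2 (0.978) and Rab36 (0.977). Only their likeness over these arrays was measured, and the 3 lens stages and the body make up most of the range.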
